A study of Homo sapiens with 4 samples.

Results

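The genes described here encode the proteasome, its activators, its assembly factors and 3 further proteins tied to it, in MM.1S cells, an established line of human multiple myeloma. They were chosen by name: every gene of the table whose symbol starts with PSM, a letter from A to G and a number, together with POMP, NFE2L1, DDI2 and ADRM1. This gave 51 of the 16057 genes, and all 51 reached the mean of 1 TPM (a measure per transcript length, scaled so that every library has nearly the same total) needed for the test. By role they were 14 genes of the 20S core, 3 of the immunoproteasome, 20 of the 19S cap, 5 activators or inhibitors, 5 assembly factors, and ADRM1, NFE2L1 and DDI2. The remaining match, PSMC3IP, encodes a nuclear protein of homologous recombination and no part of the proteasome, and it was kept apart.

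Cells were kept for 26 h with the solvent DMSO or with 350 nM of JG342, which blocks HSP70 chaperones through an allosteric site, and total RNA was sequenced. There were 2 libraries per treatment, numbered 1 and 2, which the series calls biological duplicates. MM.1S is 1 cell line, so no difference between patients or lines is represented. The study's title names proteasome inhibitor resistance in myeloma. The labels name no proteasome inhibitor for these libraries, and resistance was not tested here.

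The 26S proteasome degrades proteins that carry ubiquitin chains. Its barrel, the 20S core, is a stack of alpha and beta rings with the catalytic sites inside, and the 19S cap recognises, deubiquitinates, unfolds and feeds in the substrate. Interferon signalling replaces the catalytic beta subunits by immunoproteasome forms. NFE2L1 is a transcription factor anchored in the endoplasmic reticulum that is normally degraded. When proteasome activity is short it is freed, cleaved by the protease DDI2, and induces proteasome subunit genes through antioxidant response elements. Plasma cells and myeloma cells secrete large amounts of immunoglobulin and depend on the proteasome, whose PSMB5 subunit is the site bound by bortezomib and carfilzomib.

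The libraries summed to between 994463 and 994718 TPM, and between 1118 and 1418 genes were listed at 0. TPM carries no depth, so read counts behind the values are unknown. All 9 listed plasma cell or myeloma markers were present, with a summed level of 4454 to 5209 TPM per library. Markers of other cells summed to at most 0.28 TPM for fibroblasts, 11.2 TPM for epithelium, 11.7 TPM for erythroid cells and 14.8 TPM for T cells. The myeloid list reached 37.4 to 46.2 TPM, nearly all of it LYZ, while CD14 stayed at or below 0.99 TPM. Values are shares of a library's RNA, so they show neither the number of cells nor the RNA per cell. A share can also be lower because other transcripts are higher. The p-values rest only on the spread between these libraries, with each gene's spread drawn toward that of genes at like levels.

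Upstream sequences of 4 genes are shown because they hold the largest change in each direction and the elements through which NFE2L1 is known to act. They are from the RefSeq promoter table (GRCh38.p14), which held 45 of the 51 genes, read 5′ to 3′ on the gene's strand and cut short of any annotated exon of a coding gene. PSMB3 lies at chr17:38752491-38752735 on the plus strand and PSMD3 at chr17:39980557-39980796 on the plus strand. PSMD1, whose transcript fell furthest among the 51 genes, lies at chr2:231056617-231056863 on the plus strand. NFE2L1, which alone rose, lies at chr17:48048109-48048328 on the plus strand, and a further NFE2L1 start site in the table is not shown. Capitals mark matches on either strand to TGACNNNGC, the core of the antioxidant response element, and to CCAAT, a common promoter box.
PSMB3: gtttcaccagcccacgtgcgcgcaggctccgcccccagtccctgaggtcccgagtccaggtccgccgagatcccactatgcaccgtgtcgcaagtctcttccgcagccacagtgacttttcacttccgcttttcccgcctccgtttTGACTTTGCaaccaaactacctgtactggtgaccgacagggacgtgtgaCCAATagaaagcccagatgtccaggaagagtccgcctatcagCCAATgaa
PSMD3: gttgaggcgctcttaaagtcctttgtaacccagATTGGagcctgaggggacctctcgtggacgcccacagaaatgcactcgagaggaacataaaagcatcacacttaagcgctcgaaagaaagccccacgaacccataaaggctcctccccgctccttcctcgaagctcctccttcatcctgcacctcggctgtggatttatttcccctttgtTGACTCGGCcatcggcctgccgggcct
PSMD1: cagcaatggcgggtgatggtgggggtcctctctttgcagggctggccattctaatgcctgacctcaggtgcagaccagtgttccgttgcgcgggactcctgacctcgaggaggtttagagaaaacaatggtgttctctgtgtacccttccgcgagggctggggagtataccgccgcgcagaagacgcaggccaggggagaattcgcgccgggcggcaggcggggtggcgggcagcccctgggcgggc
NFE2L1: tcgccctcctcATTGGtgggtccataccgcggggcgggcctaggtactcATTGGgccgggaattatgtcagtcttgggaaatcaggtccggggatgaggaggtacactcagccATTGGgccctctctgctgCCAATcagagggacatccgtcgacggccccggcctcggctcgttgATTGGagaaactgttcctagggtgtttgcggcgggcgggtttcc

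Matches were counted in the 250 bases before each start, with 57 windows for the 45 genes and 35116 windows in the whole table. TGACNNNGC was in 15 of the 57 windows (26.3%), against 10.9% of all windows. It lay 104 bases before the start of PSMB3 and 37 bases before that of PSMD3. All 12 genes that fell after JG342 had a window, and PSMB3 and PSMD3 were the 2 of them with this match. CCAAT was in 23 of the 57 windows (40.4%), against 32% of all windows. The NFE2L1 window shown held 5 matches, and that of its further start site held 0. GAANNTTC, the core of the heat shock element, was in 2 windows (3.51%, against 5.78% of all), both of PSMC3IP. TGATGNAA, the core of the composite element bound by ATF4, was in none of the 57 (3.14% of all windows). In the 57 windows no match overlapped a match to another motif, and a match is a description of the sequence only.

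After JG342, most transcripts of the proteasome particle were lower and that of its regulator NFE2L1 was higher. Of the 51 genes, 12 fell and 1 rose at a limma adjusted p under 0.05, with 38 not passing. Over all 12042 genes tested 18.4% passed, 7.62% as lower and 10.8% as higher, while the proteasome genes that fell were 23.5% of the 51. An unadjusted limma p under 0.05 was found for 27 of the 51 genes and for 4044 of all 12042. Both JG342 libraries were below both DMSO libraries for 38 of the 51 genes (74.5%), against 28.2% of all genes. The log2 fold change was below 0 for 45 genes (88.2%, against 46.5% of all genes), with a median of −0.23 and quartiles of −0.33 and −0.12, beside a median of 0.027 for all genes.

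Fewer genes passed when a library was left out, in fits that also had fewer libraries from which to judge the spread. For the 38 genes with both JG342 libraries below both DMSO libraries, leaving out a library could not change the direction. Without DMSO replicate 1, 3 genes passed as lower, without DMSO replicate 2 it was 2, and without JG342 replicate 2 it was 6, whereas 11 passed without JG342 replicate 1. The share of all genes that passed as lower dropped too, from 7.62% to 3.30%, 1.59%, 5.96% and 5.70% in the same order. Between 42 and 46 of the 51 genes stayed below 0 in these settings. Of the 12 genes that fell, PSMD1 was the 1 that passed whichever library was left out, PSMB3 and PSMC2 passed in 3 of these 4 settings, and PSMA6 and PSMD11 in none. With the libraries scaled to equal medians, 21 passed as lower (9.97% of all genes), the median of the 51 genes was −0.30 and that of all genes −0.035, and 46 genes were below 0. Quantile normalization left 8 passing as lower (8.17% of all genes) and 45 below 0. Over all genes the unscaled split was 1304 higher and 917 lower, and the split after equal-median scaling was 966 higher and 1200 lower.

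**Figure D1:**
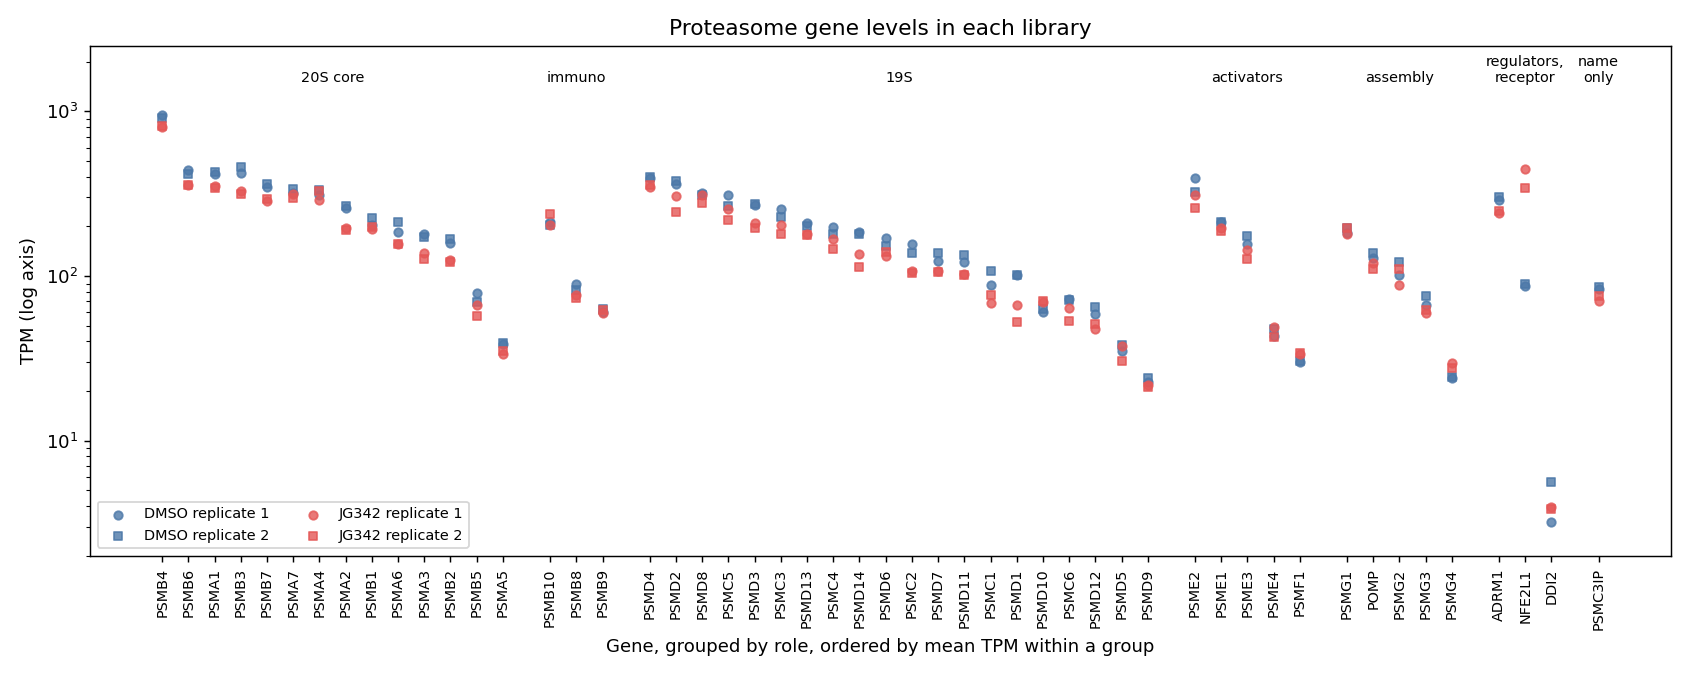
TPM of each of the 51 genes (log axis) in the 2 DMSO libraries (blue) and the 2 JG342 libraries (red), with genes grouped by role and ordered by mean level. PSMB4 is the highest gene and DDI2 the lowest, and NFE2L1 is the gene whose red points lie far above its blue ones.

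NFE2L1 (NM_001330261) changed most. It was at 87.0 and 89.0 TPM in DMSO replicates 1 and 2 and at 448 and 343 TPM in JG342 replicates 1 and 2. The JG342 libraries differed from each other, and both lay far above the DMSO libraries. The mean was 4.49 times that of DMSO, and the change was 2.14 ± 0.13 (log2 scale, ± SE; limma adjusted p 4.23e-05). Leaving out each library in turn gave 1.95 to 2.33, and NFE2L1 passed under all 12 alternatives that could change its value. DDI2, the protease that activates it, missed the threshold. It was at 3.20 and 5.59 TPM with DMSO and 3.92 and 3.86 TPM with JG342, the groups overlapped, and the difference was −0.11 ± 0.23 (limma adjusted p 0.785). Without DMSO replicate 2 the DDI2 difference turned to 0.22. At a mean of 4.14 TPM it was the lowest of the 51 genes and the widest in error, and its exons overlap those of RSC1A1 on the same strand, so its value is uncertain.

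All 14 genes of the 20S core had a log2 fold change below 0, against 46.5% of all genes. Of these 14, 5 fell (35.7%, against 7.62% of all genes). The median of the 14 was −0.27, between −0.46 and −0.049. Both JG342 libraries were below both DMSO libraries for 13 of them (92.9%, against 28.2% of all genes). PSMA4 was the exception, since JG342 replicate 2 (330.4 TPM) lay above DMSO replicate 1 (309.9 TPM). That library also lay above the DMSO mean (320.7 TPM), so PSMA4 turned above 0 without JG342 replicate 1. The summed level of the 14 genes was 4308 and 4403 TPM with DMSO and 3636 and 3635 TPM with JG342. Of the alpha ring, which forms the gate of the barrel, 3 of 7 genes fell, and of the constitutive beta ring 2 of 7. The count of 5 became 1 without DMSO replicate 1, 0 without DMSO replicate 2 and 2 without JG342 replicate 2.

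In the alpha ring, PSMA2 went from 258 and 267 TPM with DMSO to 196 and 191 TPM with JG342, by −0.44 ± 0.09 on the log2 scale (± SE; limma adjusted p 0.0116). Its exons overlap those of MRPL32 on the opposite strand, and whether strand was used in counting is not given in the sources used here. PSMA3 went from 180.1 and 173 TPM to 137 and 126 TPM, by −0.42 ± 0.10 (limma adjusted p 0.0175). PSMA6 went from 186 and 214 TPM to 157 and 156 TPM, by −0.35 ± 0.10 (limma adjusted p 0.0444). In each of these the groups were apart, and for PSMA6 the DMSO libraries were the wider pair. PSMA6 has a processed pseudogene, PSMA6P1, that matches 66.5% of its transcript at 97.4% identity, so its level is uncertain. The lowest gene of the ring and of the whole core, PSMA5, was at 38.4 and 39.2 TPM and 33.4 and 35.0 TPM, and its value of −0.18 ± 0.11 missed the threshold (limma adjusted p 0.288).

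In the beta ring, the noncatalytic subunits PSMB3 and PSMB2 fell. PSMB3 went from 421 and 462 TPM with DMSO to 327 and 315 TPM with JG342, by −0.46 ± 0.09 (limma adjusted p 0.0114). PSMB2 went from 158 and 167 TPM to 125 and 122 TPM, by −0.40 ± 0.09 (limma adjusted p 0.0198). Both genes had JG342 libraries close to each other and well below DMSO. PSMB4, another noncatalytic subunit and the highest of the 51 genes, was at 952 and 908 TPM and 799 and 816 TPM, and its value of −0.20 ± 0.09 missed the threshold (limma adjusted p 0.140). The highest core gene was 23.2 to 24.8 times the lowest within a library. The order of the 14 levels was nearly the same in both treatments (Spearman rho 0.96 between the treatment means over 14 genes, a description of genes that share libraries).

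The 3 constitutive catalytic subunits were lower in both JG342 libraries than in both DMSO libraries, as were 28.2% of all genes. None of the 3 passed in limma, although PSMB6 and PSMB7 had an unadjusted p under 0.05. PSMB5, which carries the chymotrypsin-like site, was at 79.1 and 69.8 TPM with DMSO and 66.8 and 56.8 TPM with JG342, a difference of −0.27 ± 0.12 (limma adjusted p 0.156). PSMB6, the caspase-like subunit, was at 439 and 417 TPM and 357 and 355 TPM, at −0.27 ± 0.09 (limma adjusted p 0.0668). PSMB7, the trypsin-like subunit, was at 349.5 and 359.9 TPM and 286 and 294 TPM, at −0.29 ± 0.09 (limma adjusted p 0.0514). After equal-median scaling PSMB6 and PSMB7 passed and PSMB5 did not, and all 3 passed in limma with a replicate block (adjusted p 0.0264 for PSMB5, 0.00379 for PSMB6 and 0.00191 for PSMB7).

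None of the 3 immunoproteasome genes passed in limma, where 18.4% of all genes passed. None of the 3 had an unadjusted p under 0.05, beside 4044 of the 12042 genes tested. Their median log2 fold change was −0.024, which turned to 0.0065 without DMSO replicate 2 and to 0.0026 without JG342 replicate 1. PSMB8, the interferon-inducible counterpart of PSMB5, was at 89.1 and 81.7 TPM with DMSO and 76.2 and 73.9 TPM with JG342, at −0.18 ± 0.10 (limma adjusted p 0.237), with the groups apart. PSMB9, the counterpart of PSMB6, was at 60.7 and 63.4 TPM and 59.9 and 62.1 TPM, at −0.024 ± 0.10 (limma adjusted p 0.895), with overlapping groups. PSMB10, the counterpart of PSMB7, was at 214 and 204 TPM and 205 and 239 TPM, at 0.082 ± 0.10 (limma adjusted p 0.620), and only JG342 replicate 2 stood above DMSO.

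The balance of the catalytic pairs was read from the TPM, which is per length. The immunoproteasome forms made up 29.5% and 29.2% of the summed level of the 6 catalytic subunits with DMSO, and 32.5% and 34.7% with JG342. In that sum the constitutive part went from 868 and 847 TPM to 709.9 and 706 TPM, whereas the immunoproteasome part was 364 and 349 TPM and then 341 and 375 TPM. The ratio of PSMB9 to PSMB6 was 0.138 and 0.152 with DMSO and 0.168 and 0.175 with JG342. That of PSMB10 to PSMB7 was 0.612 and 0.567, and then 0.716 and 0.810. Both ratios were higher in each JG342 library than in each DMSO library. The ratio of PSMB8 to PSMB5 was 1.13 and 1.17 with DMSO and 1.14 and 1.30 with JG342, so the groups overlapped. These ratios were not tested, nor was the difference between the core and the immunoproteasome.

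**Figure D2:**
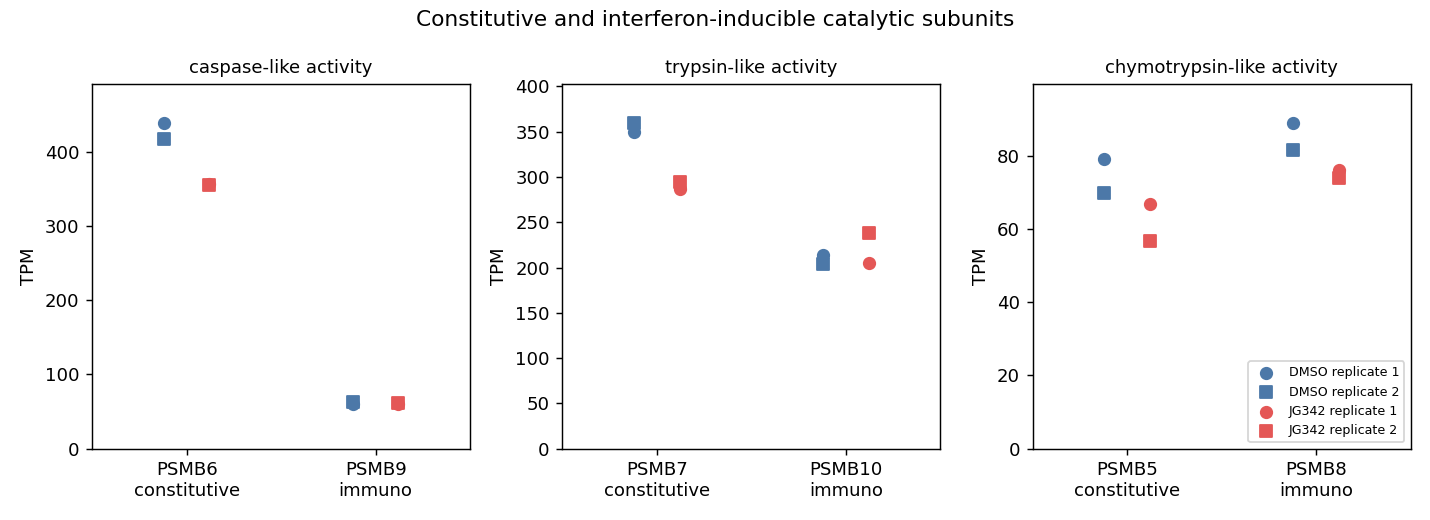
TPM (axes from 0) of the constitutive and immunoproteasome subunit for each of the 3 catalytic activities, with DMSO libraries in blue and JG342 libraries in red. The red points lie below the blue ones for PSMB5, PSMB6, PSMB7 and PSMB8, and overlap them for PSMB9 and PSMB10.

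The 19S cap held the largest falls. Of its 20 genes, 7 fell (35%, against 7.62% of all genes) and 13 did not pass, and the median log2 fold change was −0.30. In 17 genes (85%, against 28.2% of all genes) both JG342 libraries were below both DMSO libraries. The summed level of the 20 genes was 3515 and 3446 TPM with DMSO and 2940 and 2717 TPM with JG342. The range ran from −0.77 for PSMD1 to 0.17 for PSMD10, which was the single gene above 0. The count of 7 became 2 without either DMSO library and 4 without JG342 replicate 2. The order of the 20 levels was nearly the same in both treatments (Spearman rho 0.99 between the treatment means over 20 genes, again a description).

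The widest change among the subunits was in a scaffold of the base. PSMD1 (NM_001191037), which with PSMD2 forms the large scaffold that contacts substrates and shuttle factors, was at 101 and 101 TPM with DMSO and 66.4 and 52.5 TPM with JG342. The DMSO libraries were almost equal and both JG342 libraries were far below them. The change was −0.77 ± 0.12 (log2 scale, ± SE; limma adjusted p 0.00486), it ran from −0.93 to −0.60 when each library was left out, and it passed under all 12 alternatives. PSMD2 went from 362 and 377 TPM to 305 and 243 TPM, by −0.44 ± 0.12 (limma adjusted p 0.0328), with JG342 replicate 2 the lowest of the 4. PSMD4, a ubiquitin receptor and the highest 19S gene, was at 392 and 397 TPM and 346 and 356 TPM, at −0.17 ± 0.09 (limma adjusted p 0.212). Its level is uncertain, since the transcribed pseudogene PIPSL matches 82.1% of its transcript at 97.5% identity. ADRM1, the other ubiquitin receptor of the base, was at 290.4 and 300.0 TPM and 241 and 249.6 TPM, at −0.27 ± 0.09 (limma adjusted p 0.0677), with the groups apart but the threshold missed.

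Of the 6 ATPases that unfold substrates, 2 fell (33.3%, against 7.62% of all genes). In all 6 both JG342 libraries were below both DMSO libraries, as in 28.2% of all genes. All 6 had an unadjusted p under 0.05 in limma, beside 4044 of the 12042 genes tested. PSMC2 went from 157 and 138 TPM to 107 and 105 TPM, by −0.47 ± 0.10 (limma adjusted p 0.0140). PSMC1 went from 88.7 and 107 TPM to 68.8 and 76.4 TPM, by −0.42 ± 0.12 (limma adjusted p 0.0406). PSMC1 has the pseudogene PSMC1P1 at 99.9% identity over 29.7% of its transcript and overlaps NRDE2 on the opposite strand, so its level is uncertain. The other ATPases lay between −0.34 (PSMC3) and −0.28 (PSMC5), with limma adjusted p from 0.0584 to 0.124.

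Of the 8 lid genes, 3 fell (37.5%, against 7.62% of all genes). PSMD14 (NM_005805), the deubiquitinase that removes ubiquitin chains before a substrate enters, went from 186 and 179.8 TPM to 135 and 114 TPM, by −0.55 ± 0.11 (limma adjusted p 0.00981). PSMD3, a structural lid subunit, went from 269 and 272 TPM to 209.6 and 196 TPM, by −0.41 ± 0.09 (limma adjusted p 0.0151). PSMD11, which braces the lid against the core, went from 122 and 134 TPM to 102 and 101 TPM, by −0.33 ± 0.10 (limma adjusted p 0.0464). Treatments were apart for all 3, and the other 5 lid genes lay between −0.33 (PSMD12) and −0.093 (PSMD8). The 3 genes named as 19S subunits that are known as assembly chaperones of the base did not pass. PSMD9, the lowest of the group, was at 22.6 and 24.1 TPM and 21.8 and 21.0 TPM, at −0.12 ± 0.12 (limma adjusted p 0.521). PSMD5 was at −0.12 ± 0.13 (limma adjusted p 0.567) with overlapping groups. PSMD10 was at 0.17 ± 0.10 (limma adjusted p 0.264) with both JG342 libraries above DMSO, as for 34% of all genes.

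**Figure D3:**
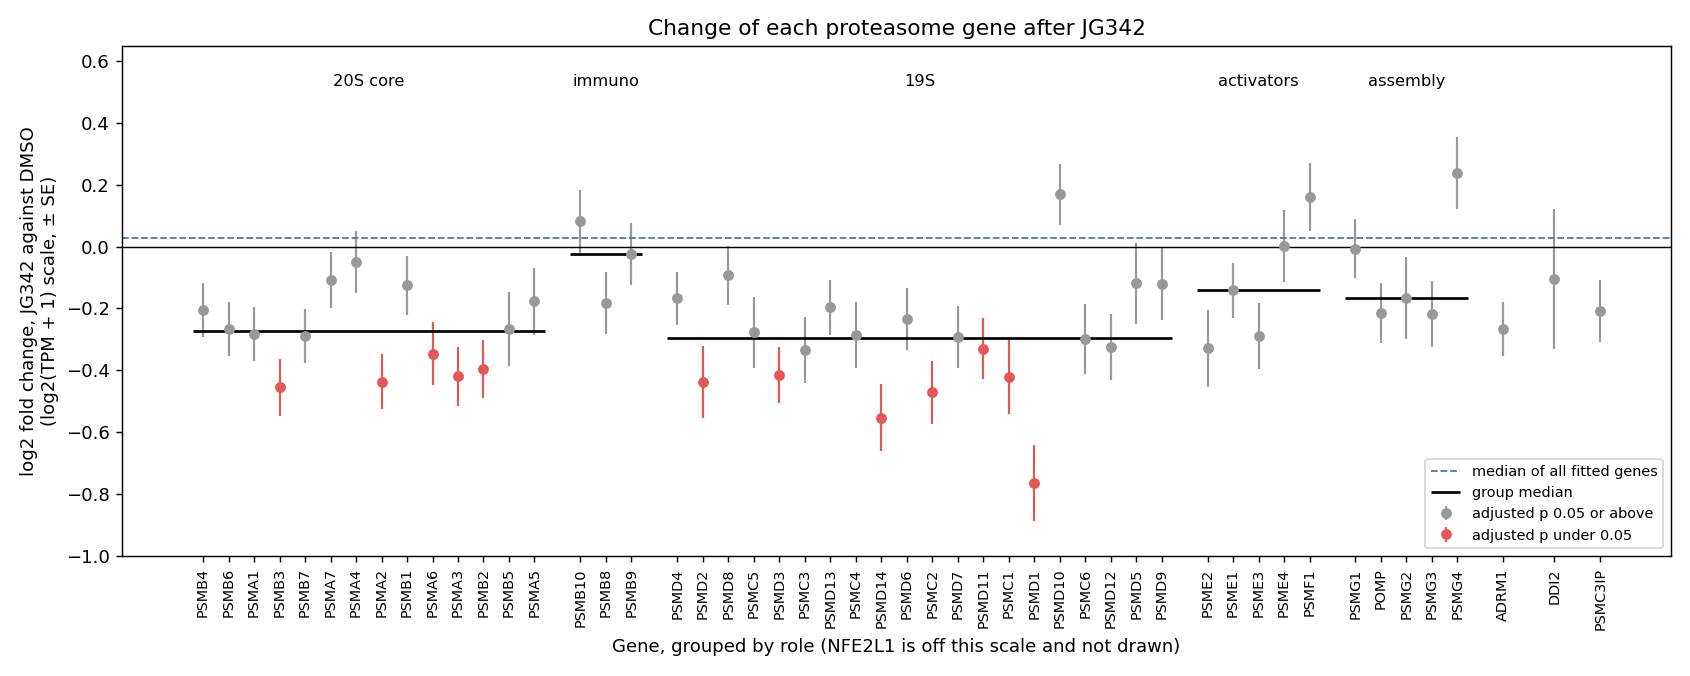
Log2 fold change of JG342 against DMSO on the log2(TPM + 1) scale for 50 of the 51 genes, with bars of 1 SE, group medians as black lines and the median of all tested genes dashed. The 12 genes that passed, in red, are all in the 20S core and the 19S cap, which together hold 34 of the 51 genes. NFE2L1, at 2.14, is off the scale.

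No activator or assembly gene passed in limma, where 18.4% of all genes passed. Groups of 5 genes are too small for these counts to be set apart from that share. The median log2 fold change of the activators was −0.14. An unadjusted p under 0.05 was seen for 2 of the 5 activator genes and none of the 5 assembly genes, beside 4044 of the 12042 genes tested. With equal-median scaling, 1 activator gene, PSME3, passed. PSME2, which forms with PSME1 the interferon-inducible ring that opens the core, was the highest of its group. It was at 393 and 324 TPM with DMSO and 312 and 259 TPM with JG342, at −0.33 ± 0.13 (limma adjusted p 0.102). It passed without JG342 replicate 1, at −0.46, and it is uncertain because 3 pseudogenes match it at over 95% identity. PSME1 was at −0.14 ± 0.09, PSME3, the nuclear activator, at −0.29 ± 0.11, and PSME4, which caps the core in chromatin-related degradation, at 0.0035 ± 0.12. PSMF1, known as an inhibitor of the isolated core, was at 30.1 and 30.4 TPM and 33.7 and 34.1 TPM, at 0.16 ± 0.11 (limma adjusted p 0.341). Both JG342 libraries were above both DMSO libraries, as for 34% of all genes.

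Among assembly factors, the median log2 fold change was −0.17, and it depended on single libraries, at −0.26 without DMSO replicate 1, −0.038 without DMSO replicate 2 and −0.011 without JG342 replicate 1. PSMG1, which with PSMG2 nucleates the alpha ring, was the highest, at 183 and 195 TPM with DMSO and 181 and 195 TPM with JG342. These values overlapped almost entirely, and the difference was −0.0065 ± 0.09 (limma adjusted p 0.972). PSMG4, the lowest of the group, was at 23.9 and 24.3 TPM and 29.6 and 27.6 TPM, at 0.24 ± 0.12 (limma adjusted p 0.185). PSMG4 was above DMSO in both JG342 libraries, as were 34% of all genes. Its partner PSMG3 was at −0.22 ± 0.11 and PSMG2 at −0.17 ± 0.13. POMP, the factor that completes maturation of the core, was at 129 and 137 TPM and 119 and 111 TPM, at −0.21 ± 0.10 (limma adjusted p 0.158). POMP was below DMSO in both JG342 libraries, as were 28.2% of all genes.

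Together the 48 genes of the particle, its activators and its assembly factors held 0.987% and 0.990% of the TPM total with DMSO and 0.842% and 0.817% with JG342. PSMC3IP, the gene matched by name alone, was at 83.4 and 85.8 TPM and 70.4 and 75.9 TPM, at −0.21 ± 0.10 (limma adjusted p 0.180), and it overlaps MLX on the opposite strand.

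Genes that handle NFE2L1 or work beside the proteasome did not share 1 direction. Of 13 genes listed for NFE2L1 processing, 3 rose and 3 fell, against 10.8% and 7.62% of all genes. SEL1L, part of the ligase complex that clears proteins from the endoplasmic reticulum, went from 85.2 and 79.5 TPM with DMSO to 197 and 145 TPM with JG342, by 1.03 ± 0.14 (limma adjusted p 0.00231). OGT, the enzyme that adds O-linked N-acetylglucosamine and is known to stabilise NFE2L1 with HCFC1, went from 152 and 130.4 TPM to 239 and 233 TPM, by 0.74 ± 0.10 (limma adjusted p 0.00252). The other gene that rose was FBXW7, a ubiquitin ligase subunit, by 0.84 ± 0.13 (limma adjusted p 0.00383). VCP and UFD1, parts of the complex that extracts NFE2L1 from the membrane, were lower, at −0.38 ± 0.09 and −0.46 ± 0.10 with limma adjusted p 0.0187 and 0.0143, and HCFC1, the partner of OGT, fell by 0.43 ± 0.11 (limma adjusted p 0.0235). None of these 3 that fell passed without DMSO replicate 1 or without DMSO replicate 2. FBXW7, VCP, UFD1, HCFC1 and SEM1 were named after their values were seen.

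Of 16 proteasome-associated factors in the table, 1 rose and 2 fell, shares near those of all genes (10.8% and 7.62%). ZFAND2A, a zinc finger protein that binds the proteasome under arsenite stress, went from 32.9 and 34.0 TPM to 60.6 and 54.8 TPM, by 0.77 ± 0.11 (limma adjusted p 0.00276). MIDN, which delivers proteins to the proteasome without ubiquitin, went from 22.4 and 23.4 TPM to 16.7 and 13.4 TPM, by −0.58 ± 0.14 (limma adjusted p 0.0224). SEM1, the small lid subunit whose symbol lies outside the naming rule, went from 303 and 289.9 TPM to 238 and 239.9 TPM, by −0.31 ± 0.09 (limma adjusted p 0.0417). SEM1 did not pass when any 1 library was left out, and MIDN passed in 1 of these 4 settings.

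None of the 6 genes of ubiquitin and its activating enzymes passed in limma, where 18.4% of all genes passed. Of the 6, 1, UBA1, had an unadjusted p under 0.05, beside 4044 of the 12042 genes tested. UBA1, the main activating enzyme, was at 169 and 185 TPM and 146 and 156 TPM, at −0.23 ± 0.10 (limma adjusted p 0.135). UBA6, the second such enzyme, was at 0.15 ± 0.13 (limma adjusted p 0.434). Genes of peptide loading are coexpressed with the immunoproteasome in many cells. Of 9 listed genes of peptide loading and of interferon signalling, 1 rose and 1 fell, against 10.8% and 7.62% of all genes. Their median log2 fold change was −0.036, and 6 of the 9 were below 0. The gene that fell was TAP2, a subunit of the peptide transporter of the endoplasmic reticulum. It went from 64.5 and 61.9 TPM to 48.4 and 41.6 TPM, by −0.48 ± 0.11 (limma adjusted p 0.0198). TAP2 did not pass without either DMSO library or without JG342 replicate 2.

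**Figure D4:**
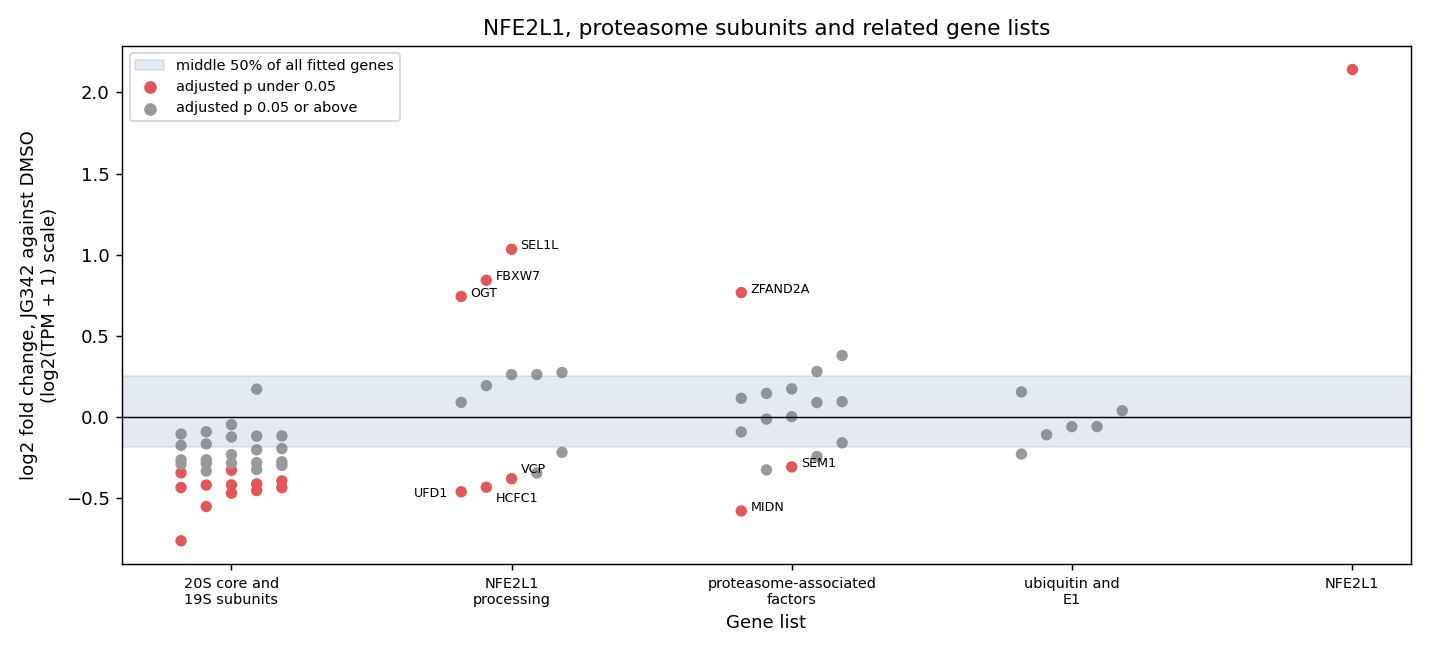
Log2 fold change of each gene (points, log2(TPM + 1) scale) for the 34 genes of the core and 19S groups, 3 related lists and NFE2L1. The 34 genes include the assembly chaperones PSMD5, PSMD9 and PSMD10. The lists are NFE2L1 processing, proteasome-associated factors, and ubiquitin with its activating enzymes. Genes past the threshold are red, and the range between the quartiles of all tested genes is shaded. NFE2L1 lies at 2.14, and the 34 genes lie mostly below the shaded band. The lists of NFE2L1 processing and proteasome-associated factors have red points on both sides of 0.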

How the data were processed

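RNA of 4 MM.1S libraries, 2 with DMSO and 2 with JG342, was sequenced on a BGISEQ instrument, per the labels. The authors deposited 1 table of TPM values per gene and library; the unit is inferred from library totals of 994463 to 994718. HISAT2 2.0.4, Bowtie2 2.2.5 and RSEM 1.2.12 are named in the submitters' processing notes. Build, annotation and filters are not given in the sources used here.

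The 12042 of 16057 genes whose mean reached 1 TPM were fitted as log2(TPM + 1) with limma 3.58.1 in R 4.3.3 (lmFit, eBayes with trend, treatment as the only term). Tests were two-sided, with Benjamini-Hochberg adjustment over all fitted genes and a threshold of 0.05. Fold changes on this scale understate low genes. On simulated data with 200 changed genes among 12042, none was recovered at a log2 change of 0.3, 60.5% at 0.6 and 98% at 1.2. Of the simulated calls, 9.02% at 0.6 and 7.11% at 1.2 were false. In the data 2221 genes passed, far more than 200, and the adjustment is then less strict. The simulated shares therefore do not give the recovery in the data.

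Members and lists were chosen with earlier results of these data known. Named with values were all members past the threshold, the 6 catalytic subunits, NFE2L1, DDI2, ADRM1, POMP, PSMF1, the highest and lowest member of each group, and the 2 members with the smallest p of each related list, of which 1 is not reported here. Of the 17 listed associated factors, ECPAS is not analysed here. All 51 accessions matched the same symbol in RefSeq (GRCh38.p14). BLAST 2.17.0 against GENCODE transcripts, at 95% identity over 20% of the query, found matches to other genes for 7 members. For 6 of them a pseudogene was among the matches. The match of PSMC3IP was MLX, whose exons overlap it on the opposite strand. Alternatives were 2 scalings, a pseudocount of 0.1, 2 filters, a replicate block with and without scaling, no trend, each library left out, and 2 regroupings.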

Additional observations from a re-analysis of the deposited data

How the results depend on the processing

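NFE2L1 and PSMD1 kept their call in every alternative that used all 4 libraries. The 13 genes called as reported kept their direction in every alternative. Only the scalings could have changed it, because the treatments did not overlap for these genes. The counts moved. Lower genes numbered 12 as reported, 21 with equal-median scaling, 3 without the filter on low values and 2 without the trend. The shares of all fitted genes that were lower, in the same order, were 7.62%, 9.97%, 1.84% and 4.37%. For the 19S these settings gave 11, 2 and 2 against 7 genes, quantile normalization gave 4, and leaving out a library 2 to 6. For the core they gave 8, 1 and 0 against 5, and leaving out a library 0 to 4. Equal-median scaling gave 1 activator gene, and leaving out a library 0 to 1, against 0. The medians with equal-median scaling, with or without the block, were −0.36 (19S, −0.30 as reported), −0.34 (core, −0.27), −0.21 (activators, −0.14) and −0.091 (immunoproteasome, −0.024). Quantile normalization gave −0.24 for the core and −0.094 for the activators. Leaving out a library gave −0.34 to −0.25 for the 19S, −0.29 to −0.26 for the core, −0.18 to −0.10 for the activators, −0.26 to −0.011 for assembly and −0.054 to 0.0065 for the immunoproteasome. Reversals were seen for DDI2 (−0.43 to 0.22 with a library left out, positive without DMSO replicate 2), PSMB10 (−0.027 to 0.19, negative without JG342 replicate 2), PSMB9 (−0.054 to 0.0065, positive without DMSO replicate 2 and, at 0.0026, without JG342 replicate 1) and PSMG1 (−0.059 to 0.046, positive without DMSO replicate 2 at 0.041, without JG342 replicate 1, and at 0.045 with quantile normalization). PSMA4, PSMD5 and PSME4 were not followed in this way, but their TPM show that they also turned with a library left out. PSMA4 turned positive without JG342 replicate 1 and PSMD5 without JG342 replicate 2. PSME4 turned negative without DMSO replicate 1 and without JG342 replicate 1. The cause of these shifts was not tested.

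In the fit with a replicate block, 27 genes were lower, 14 of the 19S, 10 of the core and 2 activators, while 15.7% of all genes were lower against 7.62% as reported. With the block and equal-median scaling it was 31 genes, 15 of the 19S, 9 of the core, 2 activators, 2 assembly factors and 1 immunoproteasome gene, beside 19.2% of all genes. The labels do not say that a number marks a shared batch. Over the fitted genes, the departures from the treatment mean of the libraries sharing a number had a Pearson r of 0.27. Moving PSMD5, PSMD9 and PSMD10 to the assembly group, or counting PSMC3IP with the 19S (added after seeing the data), changed no count of calls.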
